A study of Mus musculus with 18 samples.

Results

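Tmem176a and Tmem176b are neighbouring mouse genes whose transcripts were both lower in microglia of retinas that had received TGFB1. They were taken by Ensembl gene identifier from a table of 54532 genes and are described here in all 18 libraries. Both members were chosen by the fall of their counts with TGFB1 in microglia, so the change between treatments in microglia is given below as a description, with no test. Comparisons within non-microglia use libraries that the choice did not use. The ratio of the genes and the correlations within a treatment are quantities that it did not use. Comparisons of microglia with non-microglia reuse the microglia levels behind the choice. Their sizes in GFP and in TGFB1 retinas are therefore not set against each other.

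All libraries came from retinas of rd1 (FVB) mice at postnatal day 30. The rd1 allele disables the rod phosphodiesterase, and rods and then cones die. Mice had been injected under the retina with AAV8-GFP alone, called GFP here, or with AAV8-GFP plus AAV8-TGFB1, called TGFB1 here, so the controls carried a virus too and no uninjected or sighted group was analysed. Retinas were dissociated with papain, and antibody-stained cells were sorted into microglia (7 GFP and 7 TGFB1 libraries, replicates 2 to 8) and non-microglia (2 GFP and 2 TGFB1 libraries, replicates 1 and 2). PolyA RNA was made into libraries with a modified Smart-Seq2 protocol. The labels leave unsaid whether libraries come from separate mice, and a p-value therefore covers only the variation among the libraries at hand, part of which may be technical.

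Tmem176a and Tmem176b encode small proteins that cross the membrane several times, belong to the wider MS4A family, and have been described as cation channels of endosomes and other internal membranes. In mouse dendritic cells, Tmem176b has been linked to antigen presentation on MHC class II and to restraint of the NLRP3 inflammasome, and both genes are also known from lymphoid cells that depend on RORγt. TGFB1 is a cytokine that microglia need to keep their resting identity. In bulk libraries of sorted cells, fewer cells of a type and less RNA per cell cannot be told apart.

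The genes lie head to head on chromosome 6. In GENCODE M21 (GRCm38), Tmem176a (ENSMUSG00000023367) spans chr6:48840919-48847071 on the plus strand and Tmem176b (ENSMUSG00000029810) spans chr6:48833818-48841496 on the minus strand. Their annotated exons share 81 bases, which is 2.13% of the exon bases of Tmem176a and 3.42% of those of Tmem176b. Without a stated strand setting, reads in those shared bases could have been counted for either gene. The representative coding transcripts are alike in build: Tmem176a-201 has 7 exons and 1540 bases, 732 of them coding, and Tmem176b-202 has 7 exons and 1648 bases, 789 of them coding.

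The nearest RefSeq start sites of the genes are separated by 108 bases, chr6:48841375-48841482 in GRCm38.p6, with the Tmem176b start on the left and the Tmem176a start on the right. This stretch is shown because its edges are the leftmost RefSeq start of Tmem176a and the nearest Tmem176b start to the left of it. RefSeq lists 2 starts for Tmem176a and 3 for Tmem176b. The stretch lies inside the overlap of the GENCODE spans given above, so other annotated transcripts begin outside it. It is written on the plus strand, from RefSeq, and the capitals mark, in order, the E-box CAGCTG, the ETS and PU.1 core GGAAGT, and GTCTG, which is the SMAD box CAGAC read on the other strand.

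Tmem176b-Tmem176a: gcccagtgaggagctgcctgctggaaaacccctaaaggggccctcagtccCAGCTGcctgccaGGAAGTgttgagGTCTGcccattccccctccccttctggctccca

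PU.1 is the ETS factor on which the macrophage lineage depends, and SMAD proteins carry the TGF-beta signal to DNA. The motifs were looked for on both strands, did not overlap, and were chosen after the sequence had been read. They are common: of 32817 RefSeq start windows of the same length, 10.6% held the ETS core, 20.2% the SMAD box and 6.26% the E-box. The nuclear receptor core AGGTCA (in 6.34% of windows), the AP-1 motif TGANTCA (3.01%), the interferon response element core (1.08%), the SP1 box GGGCGG (25.5%), the basal promoter element TATAAA (5.87%) and the nuclear factor Y motif CCAAT (19.9%) were not found between the start sites. Of the 26994 genes in the RefSeq start table, 1306, or 4.84%, have an opposed start within the same distance.

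Total counts per library ran from 1766307 to 3064027 in GFP microglia, 1582451 to 3044182 in TGFB1 microglia, 2318212 to 2604930 in GFP non-microglia and 2378669 to 2392931 in TGFB1 non-microglia. The 10 microglia markers (among them P2ry12, Tmem119 and Cx3cr1) summed to 39530 to 48950 CPM in microglia and to 57.18 to 69.37 CPM in non-microglia, where C1qa and Fcrls had no count in the GFP libraries. CPM are counts scaled to a library size of 1000000, after adjusting that size by the TMM method. Markers of Mueller glia were detected in every microglia library. The 11 genes summed to 419.9 to 1053 CPM in GFP microglia and 319.1 to 885.9 CPM in TGFB1 microglia. They summed to 17370 to 17800 CPM in GFP and 15570 to 16070 CPM in TGFB1 non-microglia. Whether microglia themselves made part of this marker RNA was not tested. Cone markers (5 genes) reached 239.6 CPM in GFP and 179.6 in TGFB1 microglia, against 1502 to 1761 in GFP and 711.9 to 1056 in TGFB1 non-microglia. Bipolar markers (8 genes) had 1350 to 1442 CPM in GFP and 2093 to 2384 in TGFB1 non-microglia. Erythrocyte markers (4 genes) had 654.3 to 731.4 and 265.1 to 276.2 CPM there. Endothelial, pigment epithelium, amacrine and ganglion cell markers overlapped between the treatments in non-microglia. Amacrine markers (5 genes) overlapped between the fractions (4.689 to 67.74 CPM in microglia, 43.86 to 66.38 in non-microglia), and ganglion cell markers (5 genes) were higher in microglia (18.88 to 58.31 CPM) than in non-microglia (9.766 to 18.8). Markers of border macrophages and monocytes (12 genes) had a median of 30.66 CPM in GFP (19.75 to 42.77) and 41.32 in TGFB1 microglia (19.34 to 72.61), and 21.89 to 27.72 in non-microglia. Those of dendritic cells (9 genes, Ccr7 at 0) had a median of 30.35 CPM in GFP (21.3 to 37.11) and 35.39 in TGFB1 microglia (30.87 to 41.54), and those of T cells and innate lymphoid cells (13 genes, Il17a at 0) 17.52 and 21.88 (10.65 to 28.94 over both). The part of these cells in the values below was not tested except where stated.

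Both genes were strongly expressed in microglia. In the 7 GFP microglia libraries, Tmem176a had 525.2 CPM in the lowest, a median of 605.1 and 686 in the highest (602.4 ± 55.03, mean ± SD). In the 7 TGFB1 microglia libraries, Tmem176a had a lowest of 439.7, a median of 473.2 and a highest of 543 CPM (485.8 ± 36.67). The groups overlapped at their edges: TGFB1 replicate 5 stood above GFP replicate 7 and level with GFP replicate 2, the lowest GFP libraries.

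Tmem176b showed the same order of groups. It had 802.8 CPM in the lowest GFP microglia library, a median of 961.9 and 1092 in the highest (956 ± 93.38, n = 7). In TGFB1 microglia its lowest was 684.6, its median 748.6 and its highest 859.1 CPM (753.5 ± 63.67, n = 7). Here too the overlap was small: TGFB1 replicates 4 and 5 stood above GFP replicate 2, and the other 5 TGFB1 libraries stood below all 7 GFP libraries.

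The fall that chose the pair was modest and of like size in both genes. The log2 fold change of TGFB1 against GFP microglia was -0.32 (SE 0.06), or -19.7%, for Tmem176a and -0.35 (SE 0.06), or -21.5%, for Tmem176b. In this comparison edgeR called 8 of 10970 genes lower, 0.0729%, and 26 higher, 0.237%, at an adjusted p under 0.05. Nothing is read from these shares for the pair, since the comparison selected it. The difference in means was 116.6 CPM for Tmem176a and 202.5 CPM for Tmem176b.

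**Figure D1:**
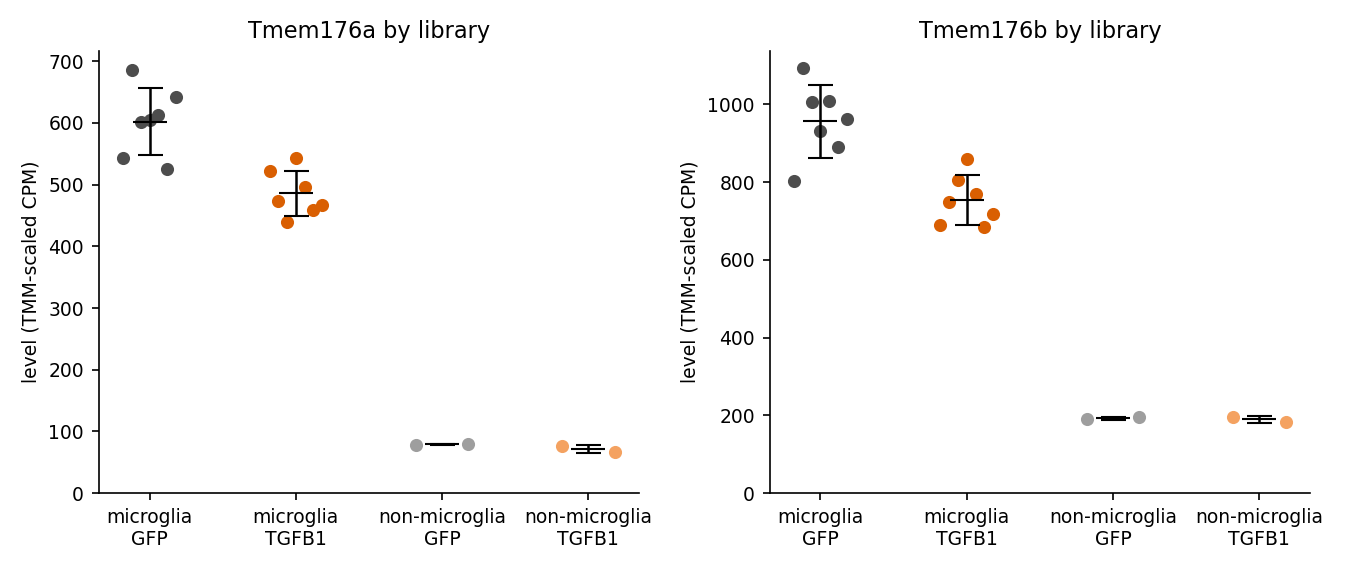
Levels of Tmem176a (left) and Tmem176b (right) in TMM-scaled CPM, with 1 point per library and bars for the group mean and SD (n = 7, 7, 2 and 2). Both genes are highest in GFP microglia, somewhat lower in TGFB1 microglia with a small overlap, and far lower in non-microglia of either treatment.

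In microglia the coefficient of variation of the pair was 7.55% to 9.77%, beside a Poisson counting error of 1.84% to 3.77% at 702 to 2955 counts per gene and library. In the pairs of non-microglia libraries it was 0.373% (GFP) and 8.96% (TGFB1) for Tmem176a and 2.28% and 5.24% for Tmem176b, beside a counting error of 3.94% to 6.97%. Without molecular identifiers, reads of the same molecule are counted more than once, and the counting error covers counting only.

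The treatment values were also taken with markers of other cells and technical labels in view. Mueller markers in the microglia libraries stood at 2.02% to 5.99% of their non-microglia level. GFP replicates 2 and 5 and TGFB1 replicate 6 had the highest Mueller marker sums, and without them the log2 fold changes were -0.35 and -0.40. With the border macrophage and monocyte markers as a covariate they were -0.34 and -0.34. Genes of the rRNA repeat (Gm42418, AY036118 and Gm26917) took 8.34% to 11.3% of counts in GFP and 5.66% to 10.1% in TGFB1 microglia, and with them left out of the scaling the log2 fold changes were -0.32 and -0.35. The deposited column names end in a letter and number of plate-well form, with letter G for 3 GFP and 4 TGFB1 microglia libraries and letter H for 4 and 3. Within letter G the log2 fold changes were -0.33 for Tmem176a and -0.34 for Tmem176b, and within letter H they were -0.32 and -0.38.

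Non-microglia held less of both transcripts than microglia. Tmem176a had 78.72 and 79.14 CPM in the GFP libraries and 75.99 and 66.93 CPM in the TGFB1 libraries. Tmem176b had 189.5 and 195.7 CPM in the GFP libraries and 196.7 and 182.6 CPM in the TGFB1 libraries. For Tmem176b the treatments interleaved, with the highest and the lowest value both in TGFB1. For Tmem176a both TGFB1 libraries lay below both GFP libraries. With 2 libraries a group such an order is frequent without any change, and nothing is read from it.

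No change with TGFB1 passed the test in non-microglia. The log2 fold change of Tmem176a was -0.14 (SE 0.14, 95% interval -0.42 to 0.15, edgeR adjusted p = 0.924). That of Tmem176b was -0.02 (SE 0.10, 95% interval -0.22 to 0.19, edgeR adjusted p = 0.991), and its sign turned when replicate 2 of either group was left out (0.04 without TGFB1 replicate 2, 0.02 without GFP replicate 2). Neither member was among the 7 genes called lower, 0.0515% of 13598 tested, or the 46 called higher, 0.338%. The interval for Tmem176a includes a fall of the size seen in microglia and that for Tmem176b ends short of it, but whether the treatment effect differs between the fractions was not tested. Mueller, cone, bipolar and erythrocyte markers did not overlap between the treatments in this fraction, as given above, but 2 libraries a group can separate by chance. The part of that cell mix was not tested.

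Microglia exceeded non-microglia in both treatments. In GFP retinas the log2 fold change was 2.93 (SE 0.12, 7.63-fold, edgeR adjusted p = 2.21e-16) for Tmem176a and 2.31 (SE 0.12, 4.97-fold, edgeR adjusted p = 1.47e-14) for Tmem176b. In TGFB1 retinas it was 2.76 (SE 0.12, 6.79-fold, edgeR adjusted p = 6.37e-16) for Tmem176a and 1.99 (SE 0.12, 3.97-fold, edgeR adjusted p = 1.95e-13) for Tmem176b. Every microglia library lay above every non-microglia library for both genes. Xist, used here as a sign of female cells, had over 100 counts in 3 of the 7 libraries of each microglia group. It did so in 0 of the non-microglia libraries. The part of sex in the fold changes between fractions, and in the ratio of the genes below, was not tested. All 4 non-microglia columns carried the letter H, and with microglia of that letter alone the log2 fold changes were 2.96 and 2.34 in GFP and 2.77 and 1.97 in TGFB1 retinas for Tmem176a and Tmem176b. Such calls were frequent, since 29.9% of 15321 tested genes were called higher in microglia in GFP retinas and 30.8% in TGFB1 retinas. By size, 8.96% of genes had a larger log2 fold change than Tmem176a and 11.5% a larger one than Tmem176b in GFP retinas, and 9.96% and 13.7% did in TGFB1 retinas.

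Per length, the pair ranked near the top of the microglial transcriptome. Divided by the union of annotated exons, Tmem176b stood at 403.2 CPM per kb in GFP microglia and Tmem176a at 158.1, ranks 81 and 240 among 15898 genes with a mean of at least 1 CPM. In TGFB1 microglia they stood at 317.8 and 127.5 CPM per kb, ranks 104 and 311 of 15790. In GFP non-microglia Tmem176b, at 81.21 CPM per kb, still ranked 268 of 16715, and Tmem176a, at 20.72, ranked 1961. Tmem176b thus lay above Tmem176a on the per-length scale in all 4 groups, and by the length of the representative coding transcripts the GFP microglia values were 580.1 for Tmem176b and 391.1 for Tmem176a.

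Levels in non-microglia were set beside those of the microglia markers. In GFP non-microglia, Tmem176a stood at 13.1% of its microglial level and Tmem176b at 20.1%, whereas the summed microglia markers stood at 0.153% (67.58 against 44060 CPM). The marker with the highest share was Sall1, a transcription factor of microglia, at 0.78%, and P2ry12, a purine receptor of microglial processes, was at 0.271%. In TGFB1 retinas the corresponding shares were 14.7% and 25.2% for the pair and 0.132% for the summed markers. Which cells the transcripts in this fraction came from, and whether part of them was carried over, was not tested.

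**Figure D2:**
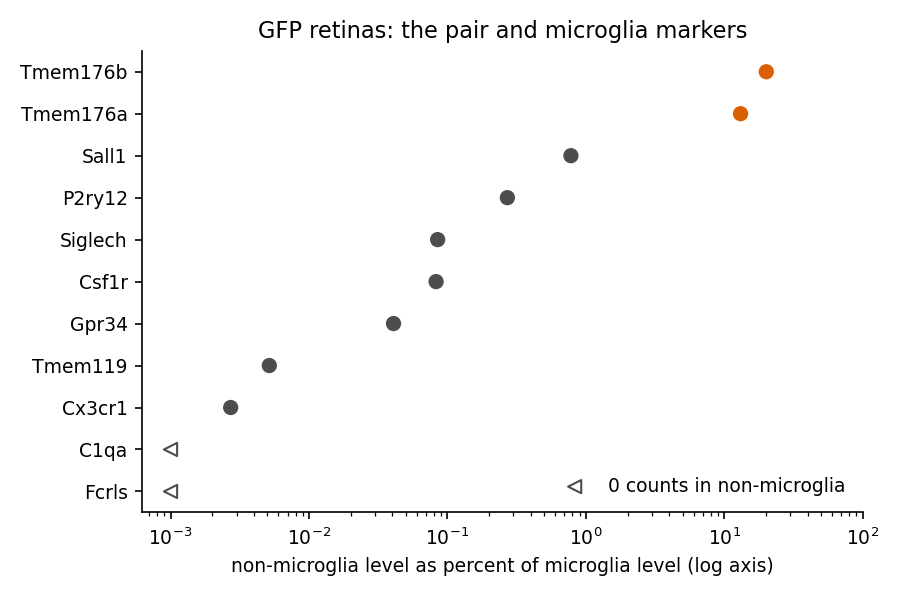
Mean level in GFP non-microglia as a percentage of the mean level in GFP microglia (log axis), for the pair (orange) and 9 of the 10 microglia markers (grey), with open triangles at the left edge for markers with 0 counts in non-microglia. The pair lies at 13.1% and 20.1%, to the right of every marker drawn, the nearest being Sall1 at 0.78%.

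The balance between the genes differed between the fractions. The ratio of Tmem176a to Tmem176b counts, in which depth and scaling cancel, was 0.5905 to 0.6764 in GFP microglia (0.6313 ± 0.0342, n = 7) and 0.5452 to 0.7585 in TGFB1 microglia (0.6477 ± 0.063, n = 7). It was 0.4045 and 0.4155 in GFP non-microglia and 0.3864 and 0.3665 in TGFB1 non-microglia. All microglia libraries lay above all non-microglia libraries, and TGFB1 microglia spanned the whole range of GFP microglia.

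On the log2 scale the ratio was higher in microglia by 0.62 in GFP retinas, or 1.54-fold, and by 0.78 in TGFB1 retinas, or 1.71-fold. A two-sided exact permutation test gave p = 0.0278 in each treatment, the smallest that 36 splits of 7 and 2 libraries allow. With each library left out in turn the difference was 0.602 to 0.64 in GFP and 0.739 to 0.818 in TGFB1 retinas, and without either non-microglia library the exact permutation p was 0.125, the smallest that 7 libraries against 1 allow.

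**Figure D3:**
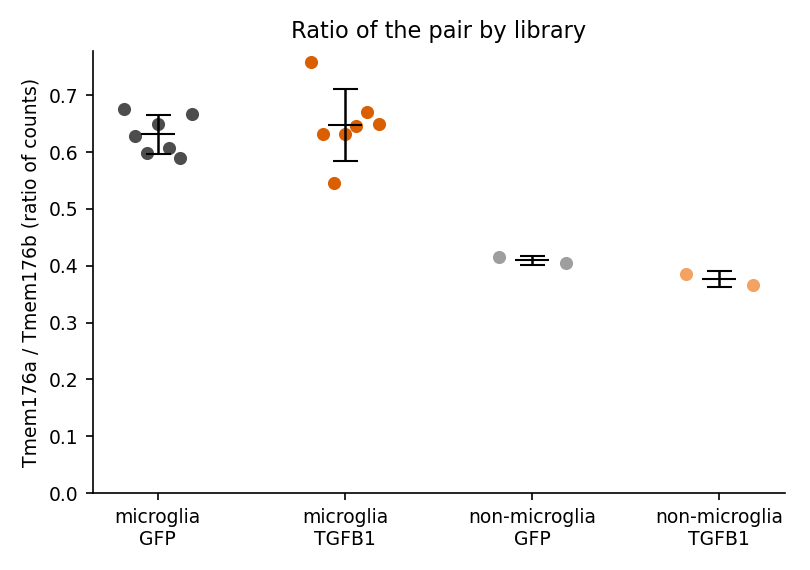
Ratio of Tmem176a to Tmem176b counts, with 1 point per library and bars for the group mean and SD (n = 7, 7, 2 and 2). The 14 microglia libraries lie between 0.5452 and 0.7585, all above the 4 non-microglia libraries, which lie between 0.3665 and 0.4155.

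Among libraries of a treatment, the genes varied together in GFP microglia and not detectably in TGFB1 microglia. Over the 7 GFP libraries, log2 CPM of the genes gave Pearson's r = 0.843 (exact permutation p = 0.0208, adjusted over 6 relations 0.0417) and Spearman's rho = 0.786 (exact permutation p = 0.048). Without replicates 3 and 7, the libraries farthest from the median of Tmem176a, r was 0.824 (exact permutation p = 0.125). Over the 7 TGFB1 libraries r was 0.243 (exact permutation p = 0.593, adjusted 0.711) and rho 0.25 (exact permutation p = 0.595), and r was -0.137 without replicates 2 and 5 (exact permutation p = 0.908). The relation in GFP microglia no longer passed with 5 libraries or with plain library totals (r = 0.725, exact permutation p = 0.0643), and the difference between the treatments' correlations was not tested.

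The genes whose levels ran most like each member were then ranked. Over the 14 microglia libraries, with each treatment centred on its mean, the closest of 6753 genes to Tmem176b by Pearson's r included Rps3 (0.931), a protein of the small ribosomal subunit, Eef1a1 (0.92), a translation elongation factor, the predicted gene Gm45552 (0.914) and Arhgdia (0.911), an inhibitor of nucleotide exchange on small GTPases. Those closest to Tmem176a were 0610040J01Rik (0.839), Eif2s2 (0.807), a translation initiation factor subunit, Nck1 (0.806), an adaptor protein, Rad17 (0.803), a DNA damage checkpoint protein, and Nfe2l2 (0.794), the oxidative stress transcription factor. Tmem176a was only the 641st in the order for Tmem176b and Tmem176b the 145th for Tmem176a, with r = 0.601 between them. These coefficients describe 14 libraries that also differ in depth, and carry no test.

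Because ribosomal protein genes stood high in the order for Tmem176b, the summed level of 83 ribosomal protein genes was set beside the pair, a choice made after the order had been seen. The sum was 13040 to 18750 CPM in GFP microglia (15840 ± 1686, n = 7), 12670 to 16130 in TGFB1 microglia (14560 ± 1434, n = 7), 4277 to 4368 in GFP non-microglia and 4443 to 4717 in TGFB1 non-microglia. With Tmem176b it gave r = 0.959 in GFP microglia (exact permutation p = 0.000794, adjusted 0.00476; rho = 0.893, exact permutation p = 0.0123) and r = 0.894 in TGFB1 microglia (exact permutation p = 0.00813, adjusted 0.0244; rho = 0.929, exact permutation p = 0.00675). Without the 2 libraries farthest from its median, r was 0.911 in GFP (exact permutation p = 0.05) and 0.78 in TGFB1 microglia (exact permutation p = 0.1), so with 5 libraries neither passed. GFP replicate 3, with the most counts of that group, had the highest sum and the highest level of both genes, and GFP replicate 2, with the fewest counts, had the lowest sum and the lowest Tmem176b. In TGFB1 microglia the deepest libraries, replicates 3, 4 and 5 (2616522 to 3044182 counts), also had the highest sums (15760 to 16130 CPM). The single libraries with the most and the fewest counts in TGFB1 microglia did not follow the GFP order. There replicate 4, with the most counts, had the lowest Tmem176a and a sum below that of replicate 5. Replicate 6, with the fewest counts, had neither the lowest sum nor the lowest level of either gene.

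Tmem176a followed the ribosomal sum in GFP microglia (r = 0.81, exact permutation p = 0.0304, adjusted 0.0455; rho = 0.75, exact permutation p = 0.0663; r = 0.731 without replicates 2 and 3, exact permutation p = 0.175). In TGFB1 microglia it gave r = -0.028 (exact permutation p = 0.947, adjusted 0.947; rho = 0.0714, exact permutation p = 0.906; r = 0.21 without replicates 2 and 7, exact permutation p = 0.692). Of 80 ribosomal protein genes tested between treatments in microglia, 76 had a log2 fold change below zero, and edgeR called none of them. Their median was -0.13 and their range -0.30 to 0.24, beside a median of 0.003 over all tested genes. These genes were looked at for their likeness to Tmem176b, so nothing is read from that count. With the ribosomal sum as a covariate, the log2 fold change of TGFB1 against GFP microglia was -0.28 for Tmem176a and -0.26 for Tmem176b. The part of library depth and quality in these relations was not tested.

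**Figure D4:**
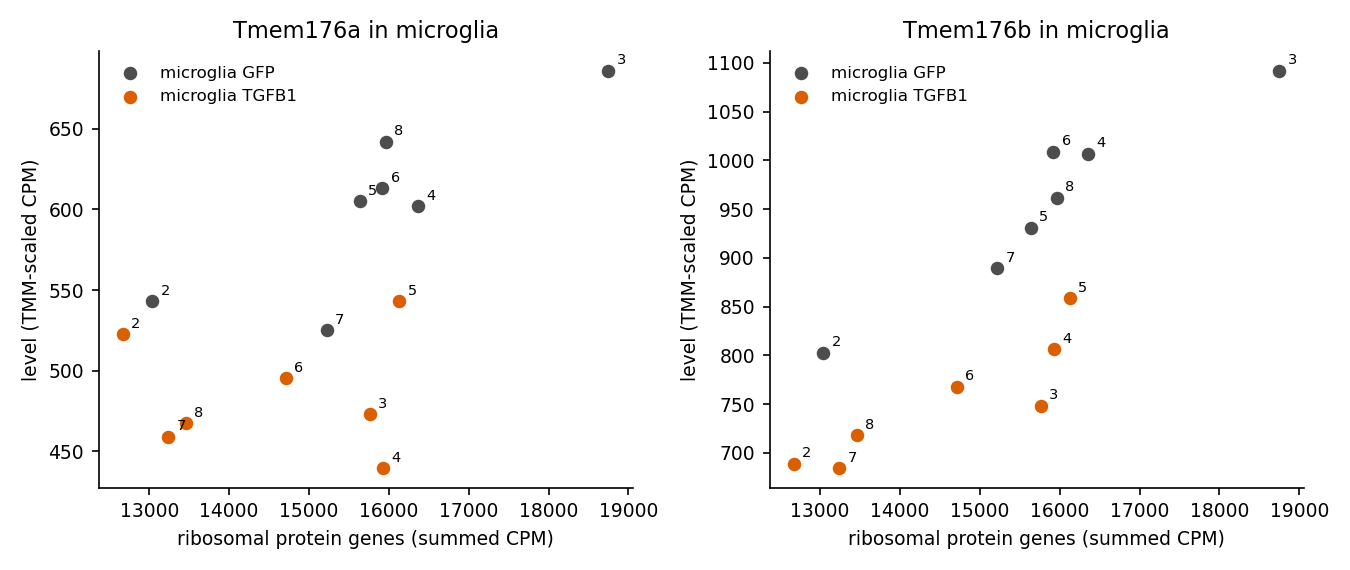
Level of Tmem176a (left) and Tmem176b (right) in TMM-scaled CPM against the summed CPM of 83 ribosomal protein genes in the 14 microglia libraries, with replicate numbers beside the points and axes that do not start at 0. Tmem176b rises with the sum in both treatments, with TGFB1 points below GFP points at a like sum, and Tmem176a rises with it in GFP libraries (r = 0.81) but shows no trend in TGFB1 libraries (r = -0.028).

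Genes around the pair were much lower in microglia. The 6 nearest protein-coding genes on the left are Gimap3 (63.0 kb away), Gimap5, Gm28053, Gimap1, Gimap7 and Gimap6, mostly GTPases of the immune-associated family, and those on the right are Aoc1 (25.8 kb away), 1600015I10Rik, Doxl2, Svs1, Gpnmb and Malsu1. In microglia only Malsu1, a mitochondrial ribosome assembly factor, had enough counts to be tested between treatments. It had 15.06 ± 3.874 CPM in GFP and 14.52 ± 3.166 CPM in TGFB1 microglia (n = 7 each). Its log2 fold change was -0.05 with an SE of 0.20 (edgeR adjusted p = 0.989). Gpnmb, a glycoprotein that marks lipid-laden and disease-associated macrophages, had 0 to 22 counts per microglia library, and Gimap1 had 2 to 15.

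**Figure D5:**
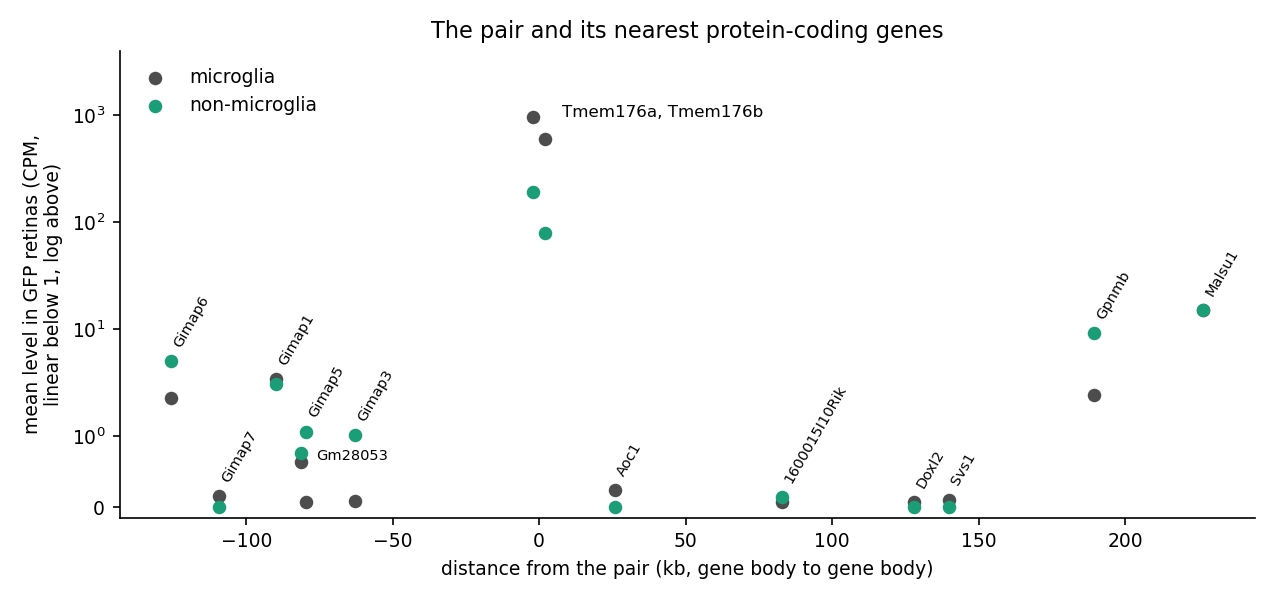
Mean level in GFP microglia and GFP non-microglia (CPM, linear below 1 and log above) of the 12 neighbouring protein-coding genes by distance from the pair in kb, with the pair set just beside 0. The pair lies above 70 CPM in both fractions, while the highest neighbour, Malsu1, lies near 15 CPM in both.

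Genes related to the pair by family or by described function were followed with TGFB1 in microglia, where the median log2 fold change of all tested genes was 0.003. Of 18 MS4A relatives, the membrane proteins closest in family, 3 could be tested and none passed, with a median of 0.02. Ms4a6b had 36.46 ± 9.735 CPM in GFP and 41.02 ± 4.693 CPM in TGFB1 microglia with a log2 fold change of 0.15 (SE 0.15, edgeR adjusted p = 0.917), and Ms4a6c had a log2 fold change of -0.18 (SE 0.21, edgeR adjusted p = 0.936). The relatives thus gave values on both sides of zero.

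Of 20 ion channels and transporters of endosomes and lysosomes, 17 were tested and none passed, with a median of -0.03. The smallest p-values were those of Hvcn1, the voltage-gated proton channel, at 0.18 (SE 0.06, edgeR adjusted p = 0.314), and Slc11a1, a metal ion transporter of phagosomes, at -0.17 (SE 0.07, edgeR adjusted p = 0.517). Of 14 inflammasome genes, 12 were tested and none passed, with a median of 0.05. Nlrp3, the sensor that Tmem176b is described to restrain, had a log2 fold change of 0.14 (edgeR adjusted p = 0.884), and Nlrp1b had 0.20 (edgeR adjusted p = 0.922).

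Of 12 genes of MHC class II presentation, 10 were tested and 1 rose, where 0.237% of all tested genes were called higher, and their median was 0.16. With each library left out in turn the median was 0.106 to 0.272, and without TGFB1 replicate 2 the count was 2. H2-DMa, a chain of the chaperone that loads peptides onto class II molecules, went from 126.5 ± 10.05 CPM in GFP to 171.4 ± 9.545 CPM in TGFB1 microglia with a log2 fold change of 0.43 (SE 0.07, edgeR adjusted p = 0.00522). Within either column letter alone its rise no longer passed, at 0.51 for G (edgeR adjusted p = 0.0846) and 0.39 for H (edgeR adjusted p = 0.383). The direction was opposite to that of the pair in the same libraries. Border macrophage and dendritic cell markers had higher medians in the TGFB1 libraries, as given above, and with the border macrophage covariate the log2 fold change of H2-DMa was 0.43 (edgeR adjusted p = 0.0148). The part of dendritic cells was not tested.

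In non-microglia no member of these lists passed with TGFB1 in edgeR, where 0.338% of all tested genes were called higher and 0.0515% lower. None of the MS4A relatives could be tested, and the medians were 0.04 for 13 channels, 0.02 for 6 inflammasome genes and 0.05 for 3 class II genes, against 0.00 for all genes. The sign of these medians was not stable with each library left out in turn. The medians were then -0.0839 to 0.0769 for channels, -0.253 to -0.175 for inflammasome genes and -0.00982 to 0.0768 for class II genes. Each of these fits filtered the genes anew, so the genes behind a median could differ from those counted above. Without GFP replicate 2, 1 channel was called.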

How the data were processed

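PolyA RNA of sorted retinal cells was measured in 18 libraries. The authors deposited raw read counts per Ensembl gene in a single table. STAR, featureCounts, DESeq2 and GRCm38.p6 are named in the submitters' processing notes. Which versions, annotation release, strand setting and read filters were used is not stated in the labels or notes. Of 54532 genes, 54495 matched GENCODE M21 by identifier.

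The members, gene lists and tests were chosen with earlier results of these data known. Counts were fitted in edgeR 4.0.16 (R 4.3.3) by the quasi-likelihood F test after filterByExpr, with robust dispersion and TMM factors, with Benjamini-Hochberg adjustment over all genes tested and a threshold of 0.05. Treatments were compared within each fraction, and fractions in 1 fit of all 18 libraries in 4 groups, which also gave the CPM shown. Standard errors are the log2 fold change divided by the square root of F. Ratios and correlations used two-sided exact permutation tests. Correlations and likeness used log2 CPM, likeness with 0.5 CPM added and genes of at least 20 CPM. Steps were tested on simulated data. Named were the pair, 6 neighbours on each side, the 5 most similar genes, and list members that passed or up to 2 that came closest. Gene lists covered MS4A relatives, endolysosomal ion channels, inflammasome and MHC class II presentation. Start windows came from RefSeq GRCm38.p6. Alternatives included limma 3.58.1 voom and DESeq2 1.42.0. Results of a few genes are not reported here.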

Additional observations from a re-analysis of the deposited data

How the results depend on the processing

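Over 30 alternatives, the log2 fold change of the pair in microglia was -0.348 to -0.285 for Tmem176a and -0.405 to -0.263 for Tmem176b. These alternatives refit the libraries that chose the pair, so a turned sign was unlikely and the kept sign is no support for the fall. The excess of both genes in microglia over non-microglia passed under all alternatives that were run. The counts of called genes moved more. In microglia, where 26 genes were higher and 8 lower, the fit of all 18 libraries gave 11 and 4, a covariate for Xist 40 and 16, letter G alone 2 and 1, and letter H alone 0 and 0. Higher genes numbered 7 with the Mueller covariate, 14 with the border macrophage covariate and 15 with the ribosomal covariate. Lower genes numbered 25 with no filter, 14 in DESeq2 and 18 without the 3 libraries highest in Mueller markers. In non-microglia, with 46 higher and 7 lower, no filter gave 86 and 16, the fit of all libraries 4 and 0, DESeq2 4 lower, and scaling without rRNA repeat genes, Tgfb1 and hemoglobin 4 lower. The ribosomal covariate, the column letters and the set without libraries high in Mueller markers were chosen after seeing the data. The cause of these shifts was not tested.

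Replicate numbers were not taken to pair the libraries: same-numbered microglia correlated at -0.122 to 0.216, over 0.1 in 5 of 7 pairs, and 1 GFP and 2 TGFB1 libraries correlated best with their own number. The replicate block gave 41 higher and 19 lower genes in microglia and 89 and 20 in non-microglia.

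With each library left out in turn, microglia had 10 to 26 genes higher and 5 to 14 lower, and non-microglia 22 to 87 higher and 6 to 33 lower. Tmem176b in non-microglia ran from -0.0708 to 0.0403. The log2 ratio difference ran from 0.602 to 0.64 in GFP and 0.739 to 0.818 in TGFB1 retinas. The correlation of the pair ran from 0.745 to 0.888 in GFP microglia, with exact permutation p = 0.0819 without replicate 3, and from -0.451 to 0.605 in TGFB1 microglia. With plain library totals these correlations were 0.725 and -0.0289. With 2 non-microglia libraries per treatment, changes there smaller than the intervals given could not be seen. The intervals are for 1 gene at a time, and with adjustment over all genes tested larger changes could be missed too.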
